A study of Mus musculus with 18 samples.

Results

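The endoplasmic reticulum (ER) protein folding and disposal genes described here are 38 named genes: 13 chaperones and co-chaperones, 12 isomerases and oxidases, and 13 genes of ER-associated degradation (ERAD). They were taken from the tables by symbol, and all 38 were present in each of 3 count tables. The tables list 17173 genes for fresh mouse bone, 16966 for bone chip cultures and 19781 for embryonic stem cells (ESC) and the osteoblasts made from them. Each table holds 6 RNA sequencing libraries, so that every gene was read in 6 cell populations with 3 libraries each.

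Secreted and membrane proteins fold in the ER. Hsp70 and Hsp90 family chaperones hold unfolded chains, lectin chaperones hold glycoproteins, protein disulfide isomerases and their oxidases form and shuffle disulfide bonds, and FK506-binding peptidyl-prolyl isomerases turn proline bonds, of which procollagen has many. Chains that fail to fold are recognised, moved back to the cytosol, ubiquitinated and degraded by ERAD, and many genes of all these steps are induced by the unfolded protein response. Osteoblasts secrete large amounts of type I procollagen, which folds and trimerises in the ER.

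The cells came from Col2.3GFP transgenic mice, or from ESC lines carrying the same transgene, in which a fragment of the Col1a1 promoter drives green fluorescent protein (GFP) in maturing osteoblast-lineage cells. Brightly fluorescent cells, GFP+ (hi), freshly sorted from long bone were set against GFP- cells of the same tissue. GFP+ (hi) cells of bone chip cultures under osteogenic differentiation were set against the GFP- cells of such cultures, and GFP+ osteoblasts differentiated from ESC (GFP+ (hi) in their labels) against ESC. Both GFP- populations are labelled heterogeneous, so that they hold several cell types. The ESC libraries also carry a treatment label of osteogenic differentiation but are read here as undifferentiated cells, as their titles and the study have it, and they expressed Pou5f1 at 909.6 to 1117 CPM (counts scaled to library size). No source used here gives the age or sex of the mice or says that replicates were separate mice or cultures, so p-values measure the spread between these samples. GFP+ (lo) cells were not analysed here.

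Some of these genes carry an ER stress response element in their promoter, and the promoter sequences of 6 genes are shown because their transcripts moved in different directions in the comparisons described next. RefSeq promoters (GRCm38.p6, 250 bases before to 50 bases after each gene's start) matched 34 of the 38 genes in 40 windows, since 4 genes (Txndc5, Fkbp2, Fkbp14 and Derl2) have several starts. A gene was counted when any of its windows held a match. The window was searched on both strands for the ER stress response element ERSE (CCAAT, any 9 bases, CCACG) and for ERSE-II (ATTGG, any 1 base, CCACG). It was also searched for the unfolded protein response element UPRE (TGACGTGG). No window of the 34 matched genes held more than 1 of these 3 kinds of motif. Hyou1, Sil1, Manf and Derl1 have no window here, so nothing is said of their promoters. ERSE was present in 10 of the 34 genes (Hspa5, Hsp90b1, Dnajc3, Creld2, Calr, Canx, Pdia6, Ero1lb, Syvn1 and Derl3), against 0.137% of 27025 genes searched for the same motifs. ERSE-II was present in Dnajb11 and Herpud1, against 0.0444% of all genes, and UPRE in Ube2j1 and in 1 of the 3 windows of Txndc5, against 0.714%. Taken as any of the 3 motifs, 7 of 10 chaperone genes (70%), 3 of 12 isomerase genes (25%) and 4 of 12 degradation genes (33.3%) had a match, against 0.884% of all genes. Capitals mark the matched motif in each sequence, on either strand, and Fkbp7, which had none, is in lower case throughout. The windows lie at chr2:34771840-34772139, + strand for Hspa5, chr10:86705395-86705694, - strand for Hsp90b1, chr12:17266339-17266638, + strand for Pdia6, chr19:6046326-6046625, + strand for Syvn1, chr8:94386179-94386478, + strand for Herpud1 and chr2:76673049-76673348, - strand for Fkbp7.
Hspa5: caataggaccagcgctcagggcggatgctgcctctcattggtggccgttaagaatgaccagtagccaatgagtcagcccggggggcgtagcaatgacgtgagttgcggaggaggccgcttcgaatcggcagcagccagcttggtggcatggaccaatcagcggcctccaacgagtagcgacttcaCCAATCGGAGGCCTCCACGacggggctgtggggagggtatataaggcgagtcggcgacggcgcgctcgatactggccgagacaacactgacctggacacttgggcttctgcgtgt
Hsp90b1: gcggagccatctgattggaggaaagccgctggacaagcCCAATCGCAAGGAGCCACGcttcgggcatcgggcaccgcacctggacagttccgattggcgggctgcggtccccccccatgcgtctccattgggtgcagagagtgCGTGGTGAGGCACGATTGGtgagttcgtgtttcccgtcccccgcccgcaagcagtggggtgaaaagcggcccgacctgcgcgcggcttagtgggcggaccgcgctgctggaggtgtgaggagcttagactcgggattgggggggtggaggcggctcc
Pdia6: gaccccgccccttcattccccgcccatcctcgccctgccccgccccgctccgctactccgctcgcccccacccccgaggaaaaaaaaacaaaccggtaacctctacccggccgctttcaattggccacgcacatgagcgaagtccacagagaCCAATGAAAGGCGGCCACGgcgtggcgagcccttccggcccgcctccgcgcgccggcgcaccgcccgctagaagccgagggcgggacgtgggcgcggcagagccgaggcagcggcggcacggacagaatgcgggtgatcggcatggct
Syvn1: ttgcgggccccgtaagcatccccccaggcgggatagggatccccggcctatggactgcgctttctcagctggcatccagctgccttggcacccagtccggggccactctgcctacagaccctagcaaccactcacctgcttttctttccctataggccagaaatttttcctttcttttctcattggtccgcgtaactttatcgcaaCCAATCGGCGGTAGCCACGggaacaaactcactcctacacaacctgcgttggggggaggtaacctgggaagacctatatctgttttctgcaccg
Herpud1: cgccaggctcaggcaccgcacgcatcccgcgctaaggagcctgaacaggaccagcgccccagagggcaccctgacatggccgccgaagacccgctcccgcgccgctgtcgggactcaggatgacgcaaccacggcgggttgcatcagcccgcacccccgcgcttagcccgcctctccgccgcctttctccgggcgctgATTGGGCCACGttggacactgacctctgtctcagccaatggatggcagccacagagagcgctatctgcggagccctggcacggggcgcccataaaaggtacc
Fkbp7: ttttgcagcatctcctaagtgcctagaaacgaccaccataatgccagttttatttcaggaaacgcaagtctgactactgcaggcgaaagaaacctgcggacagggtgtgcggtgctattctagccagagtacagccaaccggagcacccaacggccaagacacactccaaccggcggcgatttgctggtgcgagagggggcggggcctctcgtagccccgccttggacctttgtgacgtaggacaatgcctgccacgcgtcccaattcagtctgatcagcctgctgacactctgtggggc
A match is a string of letters in this window and not evidence of binding.

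Total counts per library ranged from 4920977 to 43874837, and the bone GFP- libraries were shallow, with 5482065 to 6468750 counts. ESC replicates 1 and 3 were shallow too, with 5566062 and 4920977 counts. ESC replicate 2 had 21215099 counts and the ESC-derived GFP+ osteoblast libraries 20680956 to 26601417. The osteoblast label held in bone, where all 11 osteoblast and osteocyte markers were higher in GFP+ (hi) cells, and in bone chips, where 10 of 11 were. In ESC-derived GFP+ osteoblasts 6 of the 8 markers tested were higher and 1 was lower, and the late markers were scarce or uneven. Bglap, which encodes osteocalcin, had 0.0691, 1.32 and 0.0805 CPM in these cells, and the bone sialoprotein gene Ibsp had 0.587, 1379 and 243 CPM, with both at 0 in every ESC library. Col1a1 alone took 36.2% to 37.5% of the counts of bone GFP+ (hi) libraries and 0.805% to 1.59% of bone GFP- libraries. The ribosomal RNA gene Rn45s took 0.139% to 0.342% in bone GFP+ (hi) and 0.0561% to 0.146% in bone GFP- libraries. It took 8.01% to 12.5% in bone chip GFP+ (hi) and 8.96% to 11.5% in bone chip GFP- libraries. Its share was 0.290% to 0.690% in ESC-derived GFP+ osteoblasts and 5.72% to 7.95% in ESC. Levels are therefore given in CPM scaled by trimmed mean of M-values (TMM) factors within each table, which a few very abundant transcripts move little.

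On a joint scale across all 18 libraries, and per kilobase of exon so that genes can be compared, Hspa5 (BiP, the Hsp70 chaperone of the ER) was the most abundant in 4 of the 6 populations of the 37 genes with an exon length (all but Vimp, which had no match in the annotation and is not ranked). Its mean level was 444 CPM per kilobase in bone GFP+ (hi) cells and 653 in bone GFP- cells, 342 in bone chip GFP+ (hi) cells and 368 in bone chip GFP- cells, and 306 in ESC-derived GFP+ osteoblasts and 133 in ESC. Calr, a lectin chaperone, led in bone chip GFP- cells at 373 CPM per kilobase, and Hsp90b1 (GRP94, the ER Hsp90) led in ESC at 178. Of the FK506-binding isomerases in bone GFP+ (hi) cells, Fkbp9 at 272 and Fkbp7 at 238 CPM per kilobase came next below Hspa5 among the 37 ranked genes. Fkbp2 ranked 10 and Fkbp14 ranked 23 there. Fkbp9 also ranked 2 in bone GFP- cells, at 340 CPM per kilobase. ESC had the lowest mean level of the 6 populations for 27 of the 38 genes, while bone GFP+ (hi) cells had the highest for 12 and bone GFP- cells for 10. The same was not counted over all genes, so these numbers are not read as a trait of the 38. On the same scale in CPM, the highest and lowest population means differed 436-fold for Fkbp7, 72.8-fold for Fkbp14 and 55-fold for Herpud1, against 2.18-fold for Calr, the most even of the 38. Both Derl3, a derlin of ERAD, and Ero1lb, an ER oxidase, were scarce, at most 4.93 and 9.97 CPM in any library on the scale of their own table.

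As a summed share of all counts the 38 genes took 0.387% to 0.461% in bone GFP+ (hi) libraries and 0.994% to 1.48% in bone GFP- libraries. They took 0.563% to 0.796% in bone chip GFP+ (hi) libraries and 0.953% to 1.03% in bone chip GFP- libraries, and 0.915% to 0.987% in ESC-derived GFP+ osteoblasts and 0.657% to 0.680% in ESC. With Col1a1, Col1a2 and the ribosomal RNA gene Rn45s left out of the total, the shares were 0.815% to 0.994% in bone GFP+ (hi) and 1.02% to 1.50% in bone GFP- libraries, and the same libraries of bone chips had 0.833% to 1.17% and 1.15% to 1.20%. The groups therefore stayed apart in bone and overlapped in bone chips once these 3 transcripts were left out, as the plot of summed shares shows.

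**Figure D1:**
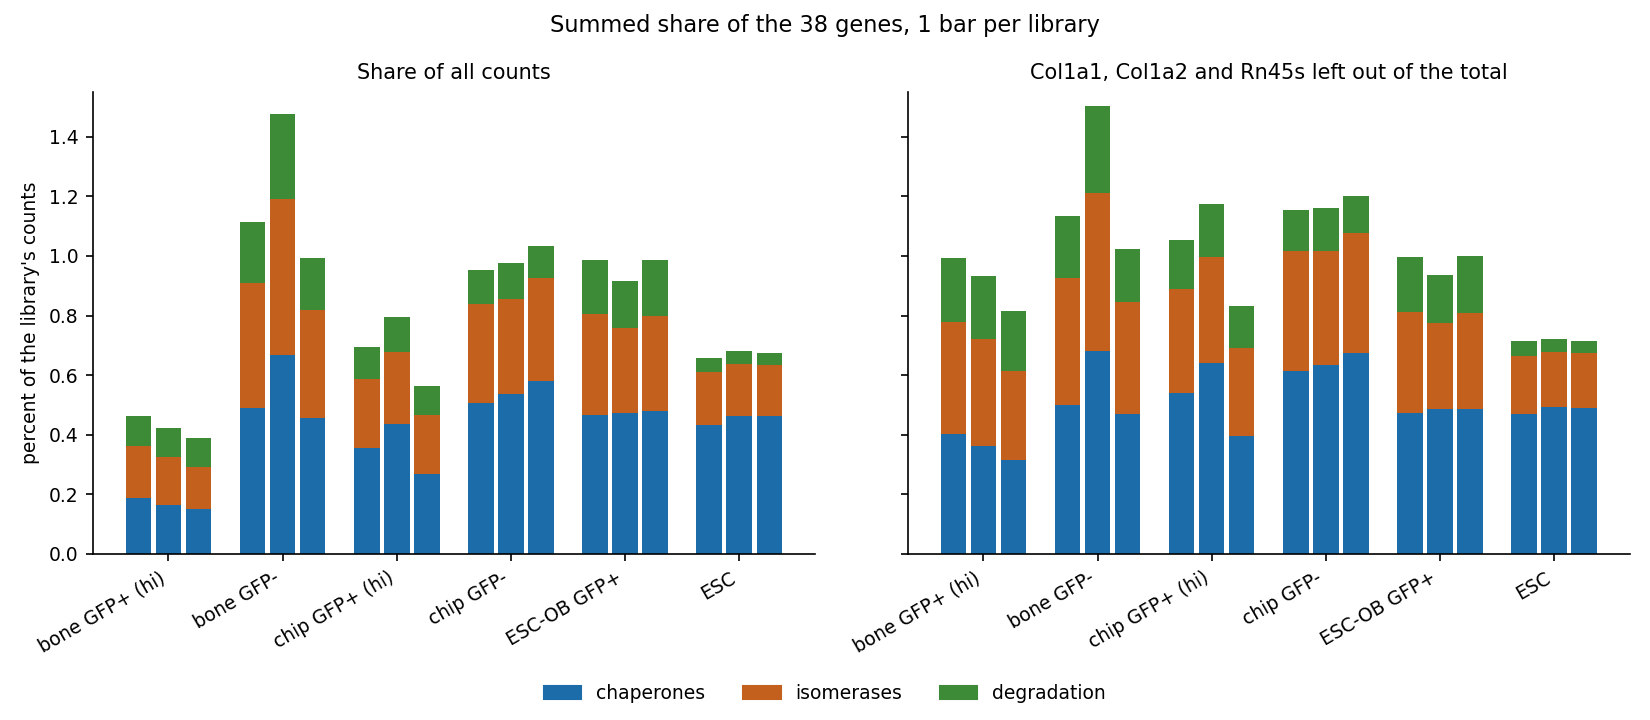
Summed share of counts of the 38 genes (percent, vertical axis) in each of the 18 libraries, GFP+ cells left of their comparison cells, with all counts and without Col1a1, Col1a2 and Rn45s. Bone GFP+ (hi) libraries lay at 0.387% to 0.461% of all counts, below bone GFP- libraries at 0.994% to 1.48%, while ESC-derived GFP+ osteoblasts (0.915% to 0.987%) lay above ESC (0.657% to 0.680%).

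The fresh bone comparison addresses how these genes differ between mature osteoblasts and the other cells of the bone. In bone GFP+ (hi) cells 6 of the 38 genes were higher and 13 lower, and the other 19 did not pass the test, against 19.5% of 12559 tested genes called higher and 22.1% called lower (edgeR quasi-likelihood test, Benjamini-Hochberg adjusted p under 0.05, used throughout). The median log2 fold change of the 38 was -0.30, against -0.00 over all tested genes. Lower calls were mostly among chaperones (1 higher and 7 lower of 13) and isomerases (1 higher and 4 lower of 12), and higher calls among degradation genes (4 higher and 2 lower of 13). In bulk libraries of sorted cells, fewer cells of a type and less RNA per cell cannot be told apart.

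**Figure D2:**
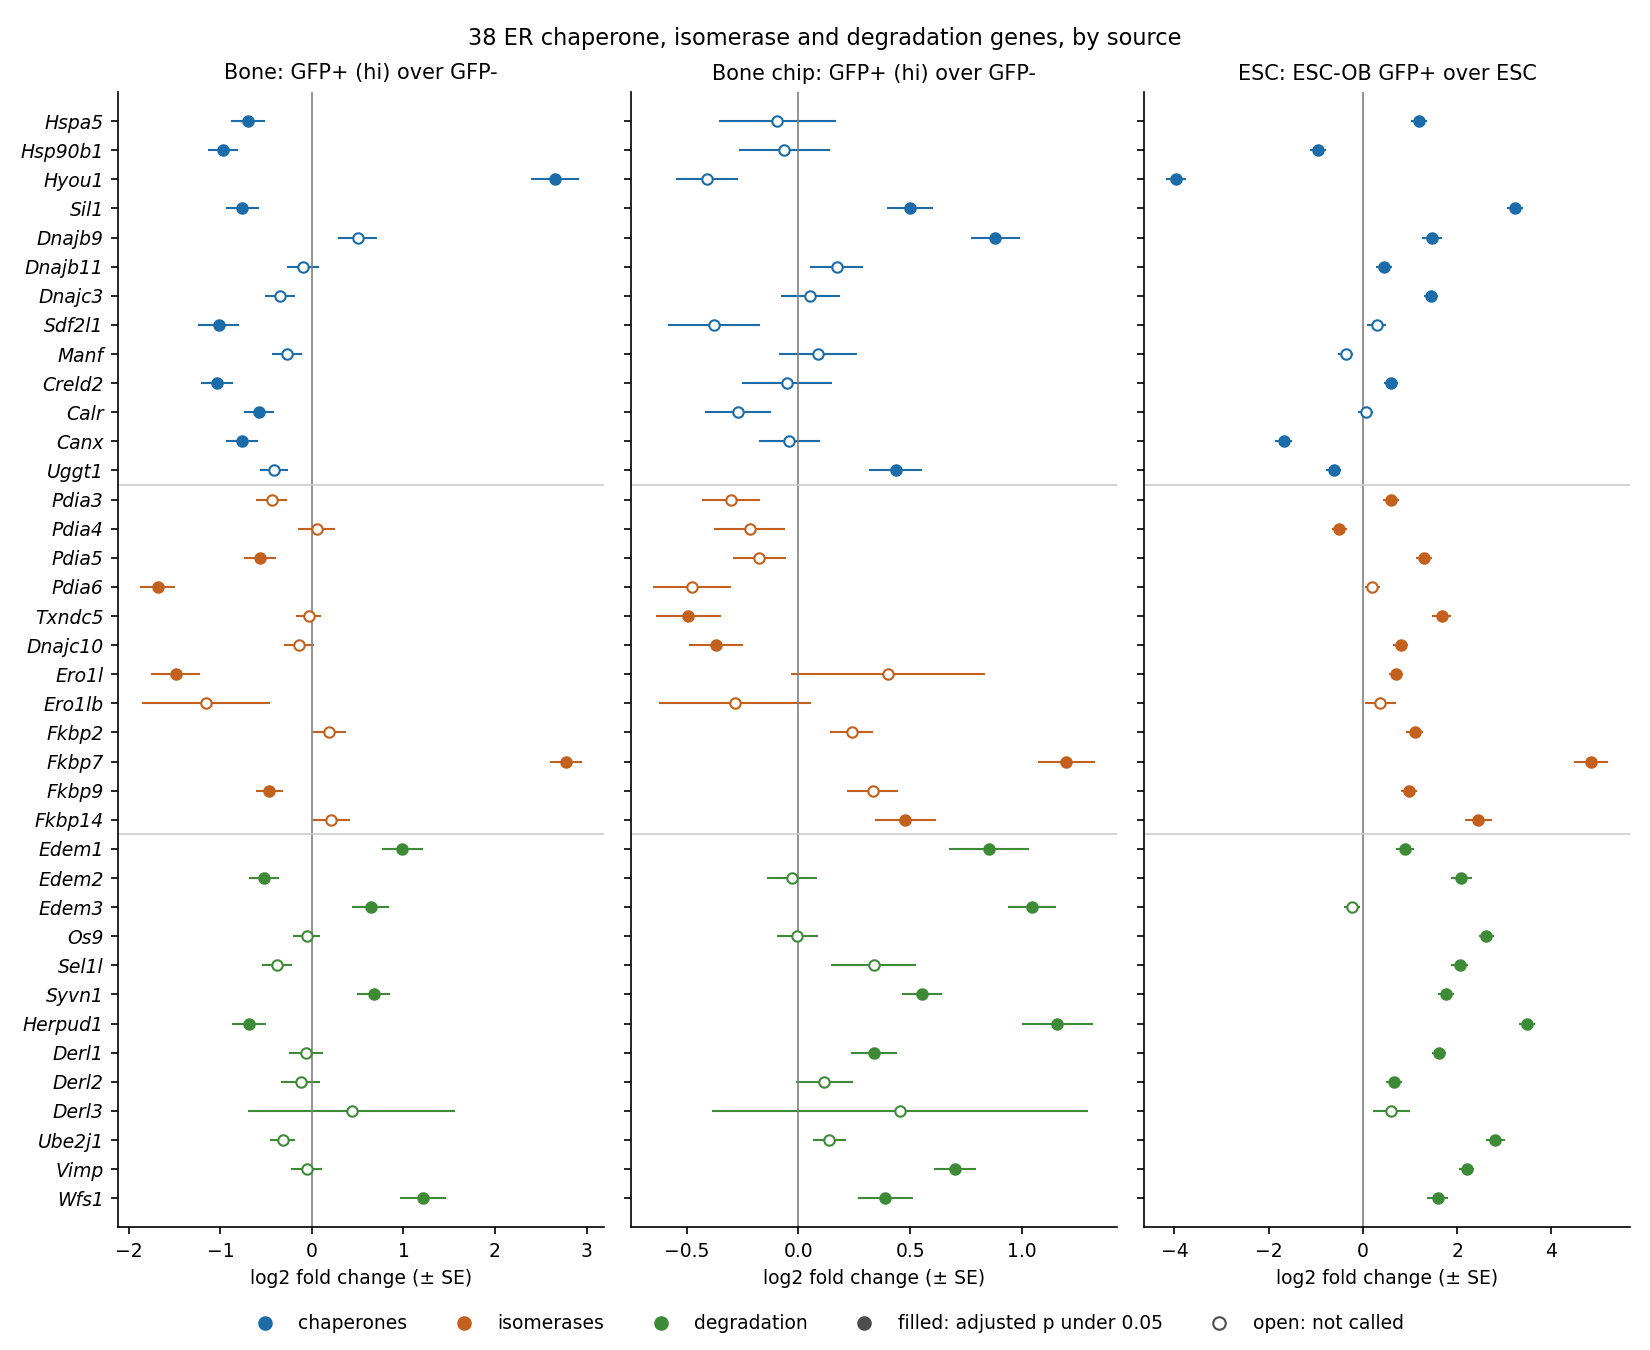
Log2 fold change (horizontal axis) of each of the 38 genes, grouped by role, in bone, bone chips and ESC-derived GFP+ osteoblasts, with bars for 1 standard error. Filled points passed the test at an adjusted p under 0.05; Fkbp7 was the highest in each source, at 2.77, 1.20 and 4.84.

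The abundant chaperones, and the scarcer Creld2 and Sdf2l1, were lower in bone GFP+ (hi) cells. Hspa5 had 1076, 1019 and 839.8 CPM in bone GFP+ (hi) cells, against 1485, 1914 and 1370 CPM in bone GFP- cells. All 3 GFP+ (hi) libraries lay below all 3 GFP- libraries, a 1.62-fold lower level (log2 fold change -0.70 ± 0.19, edgeR adjusted p = 0.0139). Its Hsp90 partner Hsp90b1 had 307, 299.8 and 266 CPM in bone GFP+ (hi) cells, against 482, 659 and 574 CPM in bone GFP- cells, again without overlap (log2 fold change -0.98 ± 0.16, edgeR adjusted p = 0.00123). The lectin chaperone Calr had 412, 339 and 366 CPM in bone GFP+ (hi) cells, against 543, 491 and 635 CPM in bone GFP- cells, a 1.49-fold lower level (log2 fold change -0.58 ± 0.16, edgeR adjusted p = 0.0165), and the call was lost without GFP+ (hi) replicate 2 or GFP- replicate 3 (adjusted p up to 0.0838). Canx, its membrane-bound relative, had 141, 111 and 92.8 CPM in bone GFP+ (hi) cells, against 194, 196 and 195 CPM in bone GFP- cells. Here the GFP- libraries were nearly equal and every GFP+ (hi) library was lower (log2 fold change -0.76 ± 0.17, edgeR adjusted p = 0.00626). Creld2, an ER stress-inducible protein, had 69.5, 57.1 and 57.1 CPM in bone GFP+ (hi) cells, against 131, 143 and 103 CPM in bone GFP- cells, which is 2.05-fold lower without overlap (log2 fold change -1.04 ± 0.17, edgeR adjusted p = 0.00111). Sdf2l1, a partner of the J-domain co-chaperones, was lower by a similar size (log2 fold change -1.02 ± 0.22, edgeR adjusted p = 0.00499), with 13.3 to 19.9 CPM in GFP+ (hi) cells and 25.6 to 38.1 CPM in GFP- cells.

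Nucleotide exchange factors of BiP moved in opposite directions in bone. Hyou1 (GRP170), an Hsp110-type exchange factor, had 31.2, 26.9 and 23.3 CPM in bone GFP+ (hi) cells, against 3.96, 3.32 and 5.62 CPM in bone GFP- cells. It was the only chaperone called higher, 6.3-fold (log2 fold change 2.66 ± 0.26, edgeR adjusted p = 4.33e-05), from a low level in both groups. Sil1, the other exchange factor, had 35.5, 31 and 23.8 CPM in bone GFP+ (hi) cells, against 48.8, 50.6 and 53.9 CPM in bone GFP- cells, with all GFP+ (hi) libraries lower (log2 fold change -0.76 ± 0.18, edgeR adjusted p = 0.00802). The J-domain co-chaperones Dnajb9, Dnajb11 and Dnajc3, the glycoprotein folding sensor Uggt1 and the secreted ER protein Manf did not pass the test, with log2 fold changes of 0.50, -0.10, -0.35, -0.41 and -0.27. Uggt1 had 73.1, 75.2 and 73.2 CPM in bone GFP+ (hi) cells, against 94.5, 114 and 85.9 CPM in bone GFP- cells. It missed the threshold narrowly with its groups apart (edgeR adjusted p = 0.054, and 0.0435 with DESeq2).

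Among the isomerases, Fkbp7, an ER prolyl isomerase of the FK506-binding family, showed the largest rise of the 38 genes. It had 208, 192 and 198 CPM in bone GFP+ (hi) cells, against 23.8, 29.2 and 34.5 CPM in bone GFP- cells. The lowest GFP+ (hi) library was far above the highest GFP- library, and the level was 6.84-fold higher (log2 fold change 2.77 ± 0.17, edgeR adjusted p = 3.08e-06). Pdia6, a disulfide isomerase known to act with BiP, showed the largest fall. Its level was 232, 215 and 162 CPM in bone GFP+ (hi) cells, against 652, 754 and 550.5 CPM in bone GFP- cells, 3.21-fold lower with the groups well apart (log2 fold change -1.68 ± 0.19, edgeR adjusted p = 0.000118). Ero1l, the oxidase that recharges disulfide isomerases, had 18.2, 22.8 and 15.3 CPM in bone GFP+ (hi) cells, against 36.9, 73.8 and 46.7 CPM in bone GFP- cells, 2.8-fold lower (log2 fold change -1.49 ± 0.27, edgeR adjusted p = 0.0019). Bone GFP- replicate 2 was the highest library for Ero1l, as it was the highest of its group for 27 of the 38 genes. The same was not counted over all genes, so this is not read as a trait of the 38. Pdia5 was 1.48-fold lower, with 60.2, 56.7 and 61.6 CPM in bone GFP+ (hi) cells, against 69.7, 104 and 90.2 CPM in bone GFP- cells (log2 fold change -0.56 ± 0.17, edgeR adjusted p = 0.026). Fkbp9, another FK506-binding prolyl isomerase, had 595, 612 and 491 CPM in bone GFP+ (hi) cells, against 799, 782 and 762 CPM in bone GFP- cells (log2 fold change -0.46 ± 0.15, edgeR adjusted p = 0.0335). Both calls were fragile: that of Pdia5 was lost without GFP+ (hi) replicate 1 or 2 or GFP- replicate 2 or 3 (adjusted p up to 0.0882), and that of Fkbp9 without any library but GFP- replicate 2 (up to 0.0983). Txndc5 had 451, 473 and 425 CPM in bone GFP+ (hi) cells, against 492, 453 and 437 CPM in bone GFP- cells, overlapping (log2 fold change -0.04 ± 0.14, edgeR adjusted p = 0.863). Dnajc10 had 55.5, 51.2 and 50.9 CPM in bone GFP+ (hi) cells, against 54.8, 68.6 and 50.8 CPM in bone GFP- cells. Its groups overlapped too (log2 fold change -0.14 ± 0.16, edgeR adjusted p = 0.509). Pdia3, Pdia4, Ero1lb, Fkbp2 and Fkbp14 did not pass the test either, although Pdia3 did with DESeq2 (log2 fold change -0.46, adjusted p = 0.0282).

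Degradation genes held most of the rises in bone. Edem1, a mannosidase-like protein that marks misfolded glycoproteins, had 168, 172 and 192 CPM in bone GFP+ (hi) cells, against 85.3, 120.5 and 62.6 CPM in bone GFP- cells, 1.98-fold higher (log2 fold change 0.99 ± 0.22, edgeR adjusted p = 0.00621). Syvn1 (HRD1), the ubiquitin ligase at the centre of ERAD, had 130.1, 114 and 97.7 CPM in bone GFP+ (hi) cells, against 78.6, 57.3 and 77.9 CPM in bone GFP- cells. The groups did not overlap (log2 fold change 0.68 ± 0.18, edgeR adjusted p = 0.0137), but the call was lost without GFP+ (hi) replicate 1 (adjusted p 0.0602). Wfs1, an ER membrane protein linked to the turnover of stress regulators, had 13.6, 14.6 and 15.1 CPM in bone GFP+ (hi) cells, against 7.7, 5.95 and 5.03 CPM in bone GFP- cells, 2.31-fold higher at a low level (log2 fold change 1.21 ± 0.25, edgeR adjusted p = 0.00399). The related Edem genes parted: Edem3 was higher (log2 fold change 0.64 ± 0.21, edgeR adjusted p = 0.0326) and Edem2 lower (log2 fold change -0.52 ± 0.17, edgeR adjusted p = 0.0318). Edem2 had 31.1, 40.6 and 32.2 CPM in bone GFP+ (hi) cells, against 46.4, 54.7 and 47.8 CPM in bone GFP- cells. Neither call was stable, since leaving out any library but GFP+ (hi) replicate 2 ended that of Edem2 (adjusted p up to 0.125), and leaving out GFP+ (hi) replicate 2 or 3 or GFP- replicate 1 or 2 ended that of Edem3 (up to 0.11). Herpud1, a stress-induced scaffold of the ligase complex, had 351, 302 and 314 CPM in bone GFP+ (hi) cells, against 464, 655 and 436 CPM in bone GFP- cells, 1.61-fold lower (log2 fold change -0.69 ± 0.18, edgeR adjusted p = 0.0146). Its call was lost without GFP+ (hi) replicate 2 (adjusted p 0.0604). The lectin Os9, the adaptor Sel1l, the derlins Derl1, Derl2 and Derl3, the ubiquitin-conjugating enzyme Ube2j1 and the selenoprotein Vimp did not pass the test.

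Markers of other cells moved with these differences. The chondrocyte list had 13 of its 14 markers lower, summing to 10790 to 13850 CPM in bone GFP+ (hi) libraries, against 113600 to 228400 CPM in bone GFP- cells, and none was at 0 in either group. Of the B lymphoid and plasma cell markers 5 of the 6 tested were lower, and Pax5 and Tnfrsf13c were at 0 in GFP+ (hi) libraries. This list summed to 21.0 to 37.6 CPM in GFP+ (hi) and 83.7 to 195 CPM in GFP- libraries. Sdc1 made up most of each sum except that of GFP- replicate 1. It had 24.78, 31.84 and 20.85 CPM in GFP+ (hi) and 71.31, 58.45 and 77.67 CPM in GFP- libraries. Cd79a had 30.04, 2.517 and 1.17 CPM in GFP- libraries, well above the others in replicate 1 only. In GFP+ (hi) libraries Cd79a had 0.3847, 0.2733 and 0.04815 CPM. The 12 fibroblast and progenitor markers had 9 lower and 3 higher, and their sums were 6144 to 6759 CPM in GFP+ (hi) and 2227 to 2702 CPM in GFP- libraries. All 8 pluripotency markers tested were higher in GFP+ (hi) cells, though at low summed levels (25.1 to 32.7 CPM, against 0.229 to 0.880 CPM in GFP- cells, where Esrrb, Zfp42, Fgf4 and Gdf3 were at 0). Transcripts of the Y-linked genes Ddx3y, Eif2s3y, Kdm5d and Uty summed to 0.137, 42.6 and 0.298 CPM in the GFP+ (hi) libraries (here without TMM factors). In the GFP- libraries they summed to 113, 213 and 96.6 CPM. The X-linked transcript Xist had 16.9, 1.03 and 11.5 CPM in the GFP+ (hi) libraries and 0, 0.365 and 1.55 CPM in the GFP- libraries. GFP+ (hi) replicates 1 and 3 therefore differ from the GFP- libraries in sex-linked transcripts too. Blood cell markers were uneven within the groups, and highest in replicate 2 of the GFP+ (hi) libraries. Myeloid markers summed to 3.69, 61.8 and 23.6 CPM in GFP+ (hi) and 243, 9.04 and 13.6 CPM in GFP- libraries. Erythroid markers summed to 0.641, 14.7 and 2.02 CPM in GFP+ (hi) and 10.9, 13.4 and 6.43 CPM in GFP- libraries. The part of these differences in the results was not tested, except that GFP+ (hi) replicate 2 was compared alone with the GFP- libraries, a setting added after the data were seen. All 19 called genes kept their direction there and 9 passed the test with fewer samples (Hsp90b1, Hyou1, Sdf2l1, Creld2, Canx, Pdia6, Ero1l, Fkbp7 and Wfs1), 3 higher and 6 lower. The adjusted p of Hspa5 was 0.164, of Edem1 0.0517 and of Syvn1 0.0855 in that setting.

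Bone chip cultures address the same question in cells grown and differentiated in vitro. There 12 of the 38 genes were higher in GFP+ (hi) cells and 2 lower, and 24 did not pass the test, against 20.4% of 12841 tested genes called higher and 23.1% called lower. The median log2 fold change was 0.13, against -0.04 over all tested genes. Degradation genes gave 7 of the 12 rises and no fall among 13, chaperones 3 rises and no fall among 13, and isomerases 2 rises and 2 falls among 12. The replicate numbers were taken to pair these libraries from the data alone, as no label says so. A fit with the replicate as a block added Ero1l and Fkbp9 to the rises (14 higher and 2 lower). The calls in bone chips are from the fit without the block unless the block is named.

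The abundant chaperones did not pass the test in bone chips. Hspa5 had 1137, 1451 and 673 CPM in bone chip GFP+ (hi) cells, against 1129, 1274 and 1080 CPM in bone chip GFP- cells, and its GFP+ (hi) libraries enclosed all GFP- libraries (log2 fold change -0.09 ± 0.26, edgeR adjusted p = 0.795). Hsp90b1 had 1150, 1311 and 757 CPM in bone chip GFP+ (hi) cells, against 1105, 1032 and 1225 CPM in bone chip GFP- cells, with the same overlap (log2 fold change -0.06 ± 0.20, edgeR adjusted p = 0.826). In both genes GFP+ (hi) replicate 3 was the low library, as it was the lowest of its group for 27 of the 38 genes, which was not counted over all genes either. Calr had 819, 889.6 and 692 CPM in bone chip GFP+ (hi) cells, against 926, 845 and 1122 CPM in bone chip GFP- cells, overlapping (log2 fold change -0.27 ± 0.15, edgeR adjusted p = 0.188). Creld2 had 34.3, 40.4 and 23.1 CPM in bone chip GFP+ (hi) cells, against 30.4, 37.3 and 33.3 CPM in bone chip GFP- cells. The GFP+ (hi) libraries enclosed the GFP- ones (log2 fold change -0.05 ± 0.20, edgeR adjusted p = 0.859). The chaperones that rose, Dnajb9, Sil1 and Uggt1, were scarcer than Hspa5, Hsp90b1 and Calr, but so was Creld2, which did not pass the test. Dnajb9 (ERdj4), a J-domain co-chaperone induced by ER stress, had 119, 128 and 101 CPM in bone chip GFP+ (hi) cells, against 62.5, 66.5 and 59.9 CPM in bone chip GFP- cells, 1.84-fold higher (log2 fold change 0.88 ± 0.11, edgeR adjusted p = 0.000828). Sil1 had 82.1, 83.3 and 72.2 CPM in bone chip GFP+ (hi) cells, against 60.6, 57 and 50.7 CPM in bone chip GFP- cells, 1.41-fold higher without overlap (log2 fold change 0.50 ± 0.10, edgeR adjusted p = 0.00751). Uggt1 had 191, 195 and 176 CPM in bone chip GFP+ (hi) cells, against 145, 117 and 154 CPM in bone chip GFP- cells (log2 fold change 0.43 ± 0.12, edgeR adjusted p = 0.0237), and its call was lost without GFP+ (hi) replicate 1 or 2 or GFP- replicate 1 (adjusted p up to 0.0821).

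Fkbp7 again led the isomerases, with 122, 111 and 152 CPM in bone chip GFP+ (hi) cells, against 55.1, 57.7 and 54.9 CPM in bone chip GFP- cells. Each GFP+ (hi) library held more than any GFP- library, 2.29-fold on the fitted scale (log2 fold change 1.20 ± 0.13, edgeR adjusted p = 0.000449). Fkbp14, a prolyl isomerase that acts on procollagen, was the other isomerase to rise (log2 fold change 0.48 ± 0.14, edgeR adjusted p = 0.0271), and this call was lost without GFP+ (hi) replicate 1 or 3 or GFP- replicate 1 (adjusted p up to 0.0858). The 2 falls were in thioredoxin-domain proteins. Txndc5 had 186, 180.1 and 232 CPM in bone chip GFP+ (hi) cells, against 292, 238 and 312 CPM in bone chip GFP- cells (log2 fold change -0.49 ± 0.15, edgeR adjusted p = 0.0305). Dnajc10 (ERdj5), a disulfide reductase of ERAD, had 90.2, 96.5 and 102 CPM in bone chip GFP+ (hi) cells, against 127, 106 and 140 CPM in bone chip GFP- cells (log2 fold change -0.37 ± 0.12, edgeR adjusted p = 0.043). Neither gene's groups overlapped, yet the call of Txndc5 was lost without GFP+ (hi) replicate 1 or 2 or GFP- replicate 1 or 3 (adjusted p up to 0.114), and that of Dnajc10 without any library but GFP- replicate 2 (up to 0.168) and with DESeq2 (0.0555). Ero1l had 644, 621 and 276 CPM in bone chip GFP+ (hi) cells, against 462, 509 and 195 CPM in bone chip GFP- cells, and replicate 3 was low in both groups. Without the block its difference was smaller than the spread (log2 fold change 0.40 ± 0.43, edgeR adjusted p = 0.488), and with it the log2 fold change was 0.42 (edgeR adjusted p = 0.0136). Fkbp9 had 558, 513 and 591 CPM in bone chip GFP+ (hi) cells, against 478, 385 and 457 CPM in bone chip GFP- cells, apart but just short of the threshold (log2 fold change 0.33 ± 0.12, edgeR adjusted p = 0.0539), and passed in the fit with the block (log2 fold change 0.34, edgeR adjusted p = 0.0274). Pdia5 had 41.7, 41.3 and 41.4 CPM in bone chip GFP+ (hi) cells, against 54, 39.7 and 46.8 CPM in bone chip GFP- cells, with overlap (log2 fold change -0.18 ± 0.12, edgeR adjusted p = 0.276). Pdia6 had 250.5, 282 and 192 CPM in bone chip GFP+ (hi) cells, against 332, 286 and 387 CPM in bone chip GFP- cells. All GFP+ (hi) libraries were lower, short of the threshold (log2 fold change -0.48 ± 0.17, edgeR adjusted p = 0.0643).

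Herpud1 and Edem3 led the degradation genes of bone chips. Herpud1 had 180.4, 199 and 153 CPM in bone chip GFP+ (hi) cells, against 91.3, 83.2 and 64.1 CPM in bone chip GFP- cells, 2.23-fold higher (log2 fold change 1.16 ± 0.16, edgeR adjusted p = 0.00137). Edem3 had 135, 141 and 139 CPM in bone chip GFP+ (hi) cells, against 65, 59.9 and 76.3 CPM in bone chip GFP- cells, about the same size of rise with closely matching GFP+ (hi) libraries (log2 fold change 1.05 ± 0.11, edgeR adjusted p = 0.000376). Edem1 rose as well, with 162, 149 and 104 CPM in bone chip GFP+ (hi) cells, against 73.6, 87.1 and 69.1 CPM in bone chip GFP- cells (log2 fold change 0.85 ± 0.18, edgeR adjusted p = 0.00813). Vimp (selenoprotein S), which joins the derlins to the extraction machinery, had 91.3, 86 and 97.4 CPM in bone chip GFP+ (hi) cells, against 59.2, 58.1 and 51.6 CPM in bone chip GFP- cells (log2 fold change 0.70 ± 0.09, edgeR adjusted p = 0.00114). Syvn1 had 57.4, 64.1 and 56.3 CPM in bone chip GFP+ (hi) cells, against 40.3, 42.6 and 38.4 CPM in bone chip GFP- cells, 1.47-fold higher without overlap (log2 fold change 0.55 ± 0.09, edgeR adjusted p = 0.00262). Wfs1 had 36.4, 35.6 and 28.9 CPM in bone chip GFP+ (hi) cells, against 26.4, 27.9 and 22.8 CPM in bone chip GFP- cells. Derl1 and Wfs1 rose by less (log2 fold change 0.34 ± 0.10 and 0.39 ± 0.12). Both calls were lost without GFP+ (hi) replicate 1 or 2 or GFP- replicate 1 or 3, with adjusted p up to 0.116 for Derl1 and 0.138 for Wfs1, and in the joint fit of 18 libraries (0.109 and 0.162). Edem2 had 20.2, 18.9 and 23.2 CPM in bone chip GFP+ (hi) cells, against 20, 23.1 and 20.5 CPM in bone chip GFP- cells, overlapping (log2 fold change -0.03 ± 0.11, edgeR adjusted p = 0.852). Os9, Sel1l, Derl2, Derl3 and Ube2j1 did not pass the test either. All 11 fibroblast and progenitor markers tested were lower in bone chip GFP+ (hi) cells (sums of 1559 to 1709 CPM against 4213 to 8150 CPM in GFP- cells, none of the 12 listed at 0). Of 14 chondrocyte markers 2 were higher and 6 lower. Myeloid markers summed to 411, 3520 and 314 CPM in GFP- and 454 to 732 CPM in GFP+ (hi) libraries. Without GFP- replicate 2, 12 of the 38 genes were higher and 5 lower, Pdia3, Pdia5 and Pdia6 being added to the falls. The part of these markers in the differences was not tested.

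**Figure D3:**
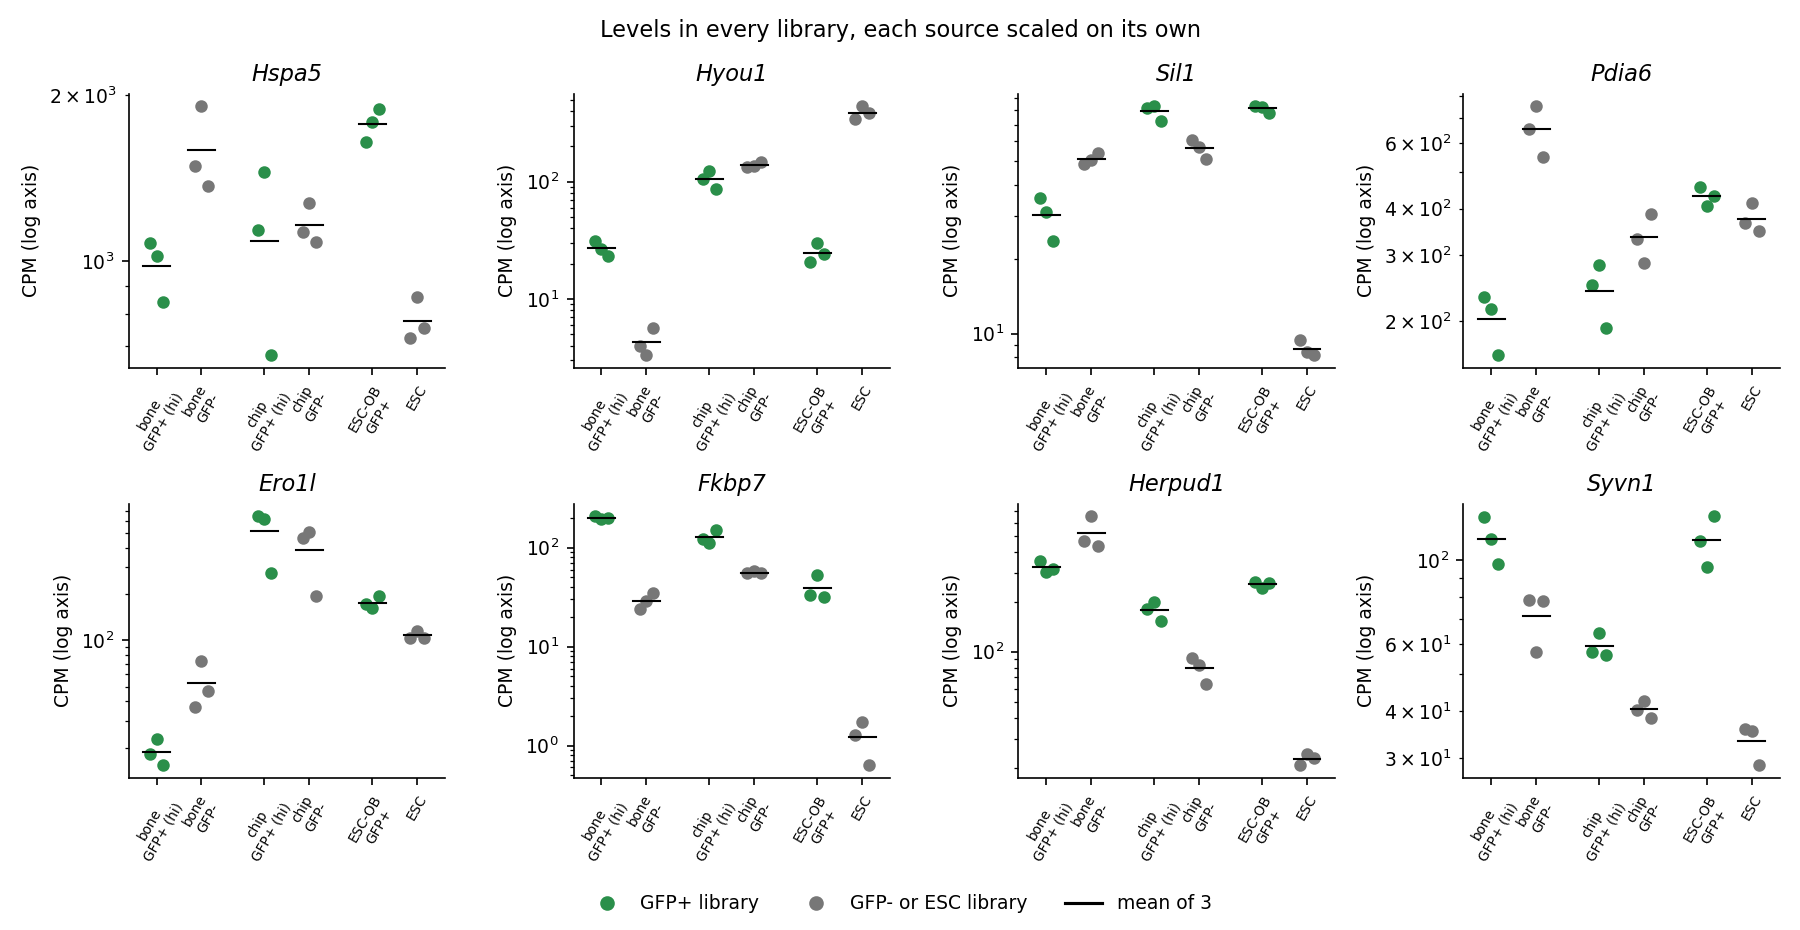
Level in CPM (vertical axis, log scale) of selected genes in each library of the 6 populations, GFP+ cells left of their comparison cells within each source, with a line at each group mean. Fkbp7 libraries of GFP+ cells lie above those of the comparison cells in every source, whereas Hyou1 lies higher in bone GFP+ (hi) cells (27.1 against 4.3 CPM) and lower in ESC-derived GFP+ osteoblasts (24.9 against 387 CPM).

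ESC-derived GFP+ osteoblasts were set against ESC, a comparison of differentiated with pluripotent cells. Here 26 of the 38 genes were higher and 5 lower, and 7 did not pass the test, against 43% of 15417 tested genes called higher and 34.7% called lower. The median log2 fold change was 0.93, against 0.22 over all tested genes. Degradation genes had 11 higher and none lower of 13, isomerases 9 higher and 1 lower of 12, and chaperones 6 higher and 4 lower of 13. ESC replicates 2 and 3 were closer to each other than other replicate pairs, and with their counts summed 24 genes were higher and 5 lower, the calls of Dnajb11 and Pdia3 being lost (edgeR adjusted p = 0.129 and 0.0592).

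BiP and its partners parted in this source. Hspa5 had 1648, 1792 and 1887 CPM in ESC-derived GFP+ osteoblasts, against 724, 859 and 753 CPM in ESC, 2.28-fold higher (log2 fold change 1.19 ± 0.18, edgeR adjusted p = 9.85e-05). Hsp90b1 went the other way, with 602, 690.5 and 565 CPM in ESC-derived GFP+ osteoblasts, against 1086, 1322 and 1176 CPM in ESC (log2 fold change -0.95 ± 0.18, edgeR adjusted p = 0.000522). Canx had 353, 353 and 321 CPM in ESC-derived GFP+ osteoblasts, against 925, 1260 and 1102 CPM in ESC, 3.2-fold lower with no overlap (log2 fold change -1.68 ± 0.18, edgeR adjusted p = 9.22e-06). Hyou1 had the largest fall, with 20.7, 29.9 and 24.1 CPM in ESC-derived GFP+ osteoblasts, against 339.5, 440.5 and 382 CPM in ESC. This was a 15.6-fold lower level (log2 fold change -3.96 ± 0.21, edgeR adjusted p = 5.18e-08). Uggt1 also fell, with 148, 126 and 161 CPM in ESC-derived GFP+ osteoblasts, against 205, 240.3 and 224 CPM in ESC (log2 fold change -0.62 ± 0.16, edgeR adjusted p = 0.00457). Sil1 had 83.1, 82.9 and 78.3 CPM in ESC-derived GFP+ osteoblasts, against 9.4, 8.38 and 8.17 CPM in ESC, 9.43-fold higher (log2 fold change 3.24 ± 0.17, edgeR adjusted p = 5.18e-08). Creld2 had 80.1, 81.3 and 84.8 CPM in ESC-derived GFP+ osteoblasts, against 51.6, 56.3 and 54.7 CPM in ESC (log2 fold change 0.60 ± 0.14, edgeR adjusted p = 0.00275). Among the J-domain co-chaperones Dnajb9 and Dnajc3 rose (log2 fold change 1.46 ± 0.20 and 1.45 ± 0.15), and Dnajb11 rose by less (log2 fold change 0.45 ± 0.17, edgeR adjusted p = 0.0329), a call lost without ESC replicate 1 or 3 (adjusted p up to 0.116). Calr had 883, 832 and 845 CPM in ESC-derived GFP+ osteoblasts, against 798, 905 and 757 CPM in ESC, overlapping (log2 fold change 0.06 ± 0.17, edgeR adjusted p = 0.761). Sdf2l1 and Manf did not pass the test.

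Fkbp7 rose most, with 32.9, 52.9 and 31.9 CPM in ESC-derived GFP+ osteoblasts, against 1.29, 1.72 and 0.628 CPM in ESC. No ESC library exceeded 1.72 CPM, and the fitted rise was 28.6-fold (log2 fold change 4.84 ± 0.36, edgeR adjusted p = 5.26e-07). The other FK506-binding genes rose as well: Fkbp14 by 2.45 ± 0.28, Fkbp2 by 1.10 ± 0.18 and Fkbp9 by 0.97 ± 0.17 on the log2 scale. Fkbp9 had 414, 328 and 400.4 CPM in ESC-derived GFP+ osteoblasts, against 203, 208 and 172 CPM in ESC (edgeR adjusted p = 0.000336). Txndc5 had 504, 336 and 473 CPM in ESC-derived GFP+ osteoblasts, against 156, 140.5 and 116 CPM in ESC, 3.19-fold higher (log2 fold change 1.67 ± 0.20, edgeR adjusted p = 2.35e-05). Pdia5 had 118, 93.6 and 109 CPM in ESC-derived GFP+ osteoblasts, against 49.4, 41.1 and 39.4 CPM in ESC (log2 fold change 1.30 ± 0.17, edgeR adjusted p = 3.29e-05). Dnajc10 had 170.4, 135 and 148 CPM in ESC-derived GFP+ osteoblasts, against 84.2, 91 and 84.6 CPM in ESC (log2 fold change 0.80 ± 0.15, edgeR adjusted p = 0.000661). Ero1l had 172, 162 and 196 CPM in ESC-derived GFP+ osteoblasts, against 104, 115 and 104 CPM in ESC (log2 fold change 0.71 ± 0.15, edgeR adjusted p = 0.0014). All these groups were apart. Pdia3 (ERp57), the isomerase that works with calnexin and calreticulin, rose (log2 fold change 0.60 ± 0.17, edgeR adjusted p = 0.00696). Pdia4 was the isomerase that fell (log2 fold change -0.50 ± 0.16, edgeR adjusted p = 0.0166), and its call was lost without ESC replicate 2 (adjusted p 0.0618). Pdia6 and Ero1lb did not pass the test.

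In the degradation branch 11 of 13 genes rose. Herpud1 had 264, 241 and 258 CPM in ESC-derived GFP+ osteoblasts, against 20.6, 24.1 and 23 CPM in ESC, 11.2-fold higher (log2 fold change 3.49 ± 0.16, edgeR adjusted p = 2.93e-08). Ube2j1, the ubiquitin-conjugating enzyme of the ER membrane, had 92.3, 99.1 and 97.4 CPM in ESC-derived GFP+ osteoblasts, against 17.9, 12.7 and 10.9 CPM in ESC, 7-fold higher (log2 fold change 2.81 ± 0.20, edgeR adjusted p = 4.34e-07). The lectin Os9 and the adaptor Sel1l, which deliver glycoproteins to the ligase, rose by 2.62 ± 0.17 and 2.05 ± 0.18 on the log2 scale. Syvn1 itself had 112, 96.3 and 131 CPM in ESC-derived GFP+ osteoblasts, against 35.8, 35.3 and 28.7 CPM in ESC (log2 fold change 1.76 ± 0.18, edgeR adjusted p = 5.26e-06). Edem2 had 157, 90.9 and 146 CPM in ESC-derived GFP+ osteoblasts, against 29.1, 32.5 and 30.6 CPM in ESC (log2 fold change 2.09 ± 0.22, edgeR adjusted p = 6.61e-06). Edem1 had 108, 94.6 and 116 CPM in ESC-derived GFP+ osteoblasts, against 66.7, 61.8 and 42.9 CPM in ESC (log2 fold change 0.89 ± 0.19, edgeR adjusted p = 0.00129). Wfs1 had 86.8, 57.9 and 74 CPM in ESC-derived GFP+ osteoblasts, against 30.6, 23.3 and 18.6 CPM in ESC (log2 fold change 1.59 ± 0.22, edgeR adjusted p = 6.36e-05). Derl1, Derl2 and Vimp rose with log2 fold changes of 1.61, 0.66 and 2.21, and Edem3 and Derl3 did not pass the test. Markers of other tissues rose too in ESC-derived GFP+ osteoblasts. All 11 airway and stratified epithelium markers tested were higher (sums of 4213 to 7621 CPM, against 0.419 to 1.44 CPM in ESC, where Krt6a, Bpifa1, Scgb3a2, Sftpc and Agr2 were at 0). All 12 fibroblast markers were higher (3204 to 4310 CPM against 5.66 to 12.35 CPM in ESC, with Clec3b, Dcn, Gdf10 and Mmp3 at 0 there) and all 6 myeloid markers tested (781 to 978 CPM against 15.1 to 20.5 CPM in ESC, with Ptprc, Mpo, S100a8, S100a9, Lyz2 and Emr1 at 0 there). The part of these cells in the rises was not tested.

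Across the 3 sources, 4 genes were called higher in all: Fkbp7, Edem1, Syvn1 and Wfs1, against 4.82% of the 11623 genes tested in all 3 sources. None was called lower in all, against 3.09% of those genes, and Ero1lb, Derl3 and Manf were called in none. The rise of Fkbp7 was 2.77 for bone, 1.20 for bone chips and 4.84 for ESC-derived GFP+ osteoblasts on the log2 scale, and that of Edem1 was 0.99, 0.85 and 0.89. Fkbp7 and Edem1 kept their calls in every source whichever library was left out, while Syvn1 lost its call in bone and Wfs1 in bone chips as given above. Another 12 genes were called in opposite directions in different sources, against 25.7% of all genes tested in the 3. Hspa5, Creld2, Pdia5, Ero1l, Fkbp9 and Edem2 were lower in bone GFP+ (hi) cells and higher in ESC-derived GFP+ osteoblasts. Sil1 and Herpud1 were lower in bone and higher in both other sources, and Hyou1 was higher in bone and lower in ESC-derived GFP+ osteoblasts. Uggt1 was higher in bone chips and Txndc5 and Dnajc10 lower there, each opposite to its ESC result. Of these 12, 7 rest on a call that leaving out 1 library ended as given above, Pdia5, Fkbp9, Edem2 and Herpud1 in bone and Uggt1, Txndc5 and Dnajc10 in bone chips. The comparison cells differ between sources, and so does what each fold change is set against.

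Whether the GFP effect differs between fresh bone and bone chips was tested in 1 fit of the 12 libraries, as the effect in bone minus that in bone chips. It was higher in bone for 3 of the 38 genes and lower for 11, against 14.7% of 13574 tested genes higher and 15.6% lower. The median difference was -0.39 on the log2 scale, against 0.01 over all tested genes. Among the 13 chaperones 1 was higher and 5 were lower, with 1 and 3 among the isomerases and 1 and 3 among the degradation genes. Ero1l differed by -1.90 ± 0.54 (edgeR adjusted p = 0.0191), Herpud1 by -1.85 ± 0.26 (0.000175), Sil1 by -1.26 ± 0.21 (0.000656) and Pdia6 by -1.21 ± 0.28 (0.00604). Of these, Herpud1 and Sil1 were called lower in bone and higher in bone chips, so that their directions were opposite, whereas Pdia6 was lower in bone and did not pass the test in bone chips. Creld2, Hsp90b1, Uggt1, Fkbp9, Vimp, Canx and Ube2j1 differed by less, between -0.99 and -0.46. Hyou1 differed most in the other direction, by 3.06 ± 0.27 (5.37e-06), with 31.2, 26.9 and 23.3 CPM in bone GFP+ (hi) cells, against 3.96, 3.32 and 5.62 CPM in bone GFP- cells as given, and 105, 124 and 86 CPM in bone chip GFP+ (hi) cells, against 133, 136 and 148 CPM in bone chip GFP- cells. The rises of Fkbp7 and Wfs1 were larger in bone than in bone chips, by 1.57 ± 0.21 (0.000132) and 0.82 ± 0.24 (0.0208). Edem1, Edem3 and Syvn1 had differences of 0.13 ± 0.31, -0.40 ± 0.25 and 0.12 ± 0.21 that did not pass the test.

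**Figure D4:**
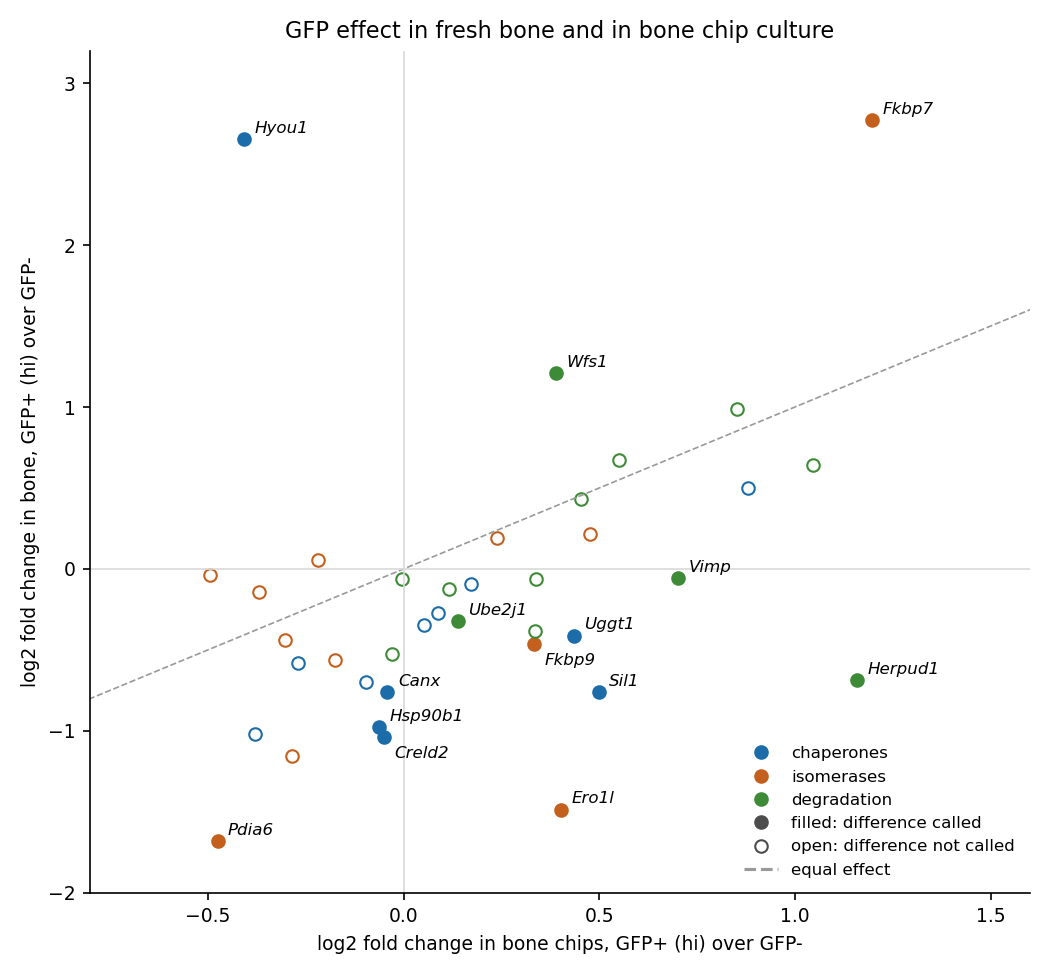
Log2 fold change of the 38 genes in bone (vertical axis) against that in bone chips (horizontal axis), GFP+ (hi) over GFP- in each, coloured by role, with a dashed line of equal effect. Filled points are the 14 genes whose effects differed between the sources at an adjusted p under 0.05; Hyou1 and Fkbp7 lie far above the line and Herpud1 and Ero1l far below it.

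Of these 14 differences, 7 held when any library was left out (Hyou1, Sil1, Uggt1, Pdia6, Fkbp7, Fkbp9 and Herpud1). That of Ero1l was lost without bone GFP- replicate 2 or bone chip GFP+ (hi) replicate 1 (adjusted p up to 0.0645), that of Creld2 without bone GFP- replicate 2 or bone chip GFP- replicate 1 (0.0581), that of Vimp without bone chip GFP- replicate 3 (0.0521) and that of Wfs1 without bone chip GFP+ (hi) replicate 3 (0.0511). Hsp90b1 lost its call without bone GFP+ (hi) replicate 3, bone GFP- replicate 2 or 3, bone chip GFP+ (hi) replicate 1 or 2, or bone chip GFP- replicate 1 or 2 (up to 0.0751). Ube2j1 lost it without bone GFP+ (hi) replicate 2, bone GFP- replicate 2 or any bone chip library (up to 0.125), and Canx without any library but bone GFP+ (hi) replicate 1 and bone chip GFP+ (hi) replicate 3 (up to 0.103). With the replicate number as a block the adjusted p was 0.0647 for Hsp90b1, 0.0553 for Canx and 0.0635 for Ube2j1. With bone GFP+ (hi) replicate 2 alone, all 14 differences kept their sign and 7 passed the test (Hyou1, Sil1, Creld2, Pdia6, Fkbp7, Herpud1 and Vimp). Uggt1 and Fkbp9 did not (adjusted p 0.0601 and 0.0775). All 14 chondrocyte markers had a lower GFP effect in bone than in bone chips, and their part in these differences was not tested.

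Members with and without an ERSE or ERSE-II match in the promoter window were called as follows. Ube2j1 and Txndc5, which had a UPRE match only, are counted among those without. Of the 12 genes with an ERSE or ERSE-II match, 1 was higher and 7 were lower in bone (median log2 fold change -0.69), 2 were higher and none lower in bone chips (-0.05), and 6 were higher and 2 lower in ESC-derived GFP+ osteoblasts (0.53). Of the 22 matched genes with neither motif, 4 were higher and 5 lower in bone (-0.09), 8 were higher and 2 lower in bone chips (0.29), and 18 were higher and 2 lower in ESC-derived GFP+ osteoblasts (1.20). Of all tested genes 19.5% were higher and 22.1% lower in bone, and 20.4% and 23.1% in bone chips. In ESC-derived GFP+ osteoblasts 43% of all tested genes were higher and 34.7% lower. The gene with a match that was higher in bone was Syvn1, whose promoter is printed with those of Hspa5, Hsp90b1, Pdia6 and Herpud1, which were lower there. Of the 12 genes with a match 7 were chaperones, the role with most of the lower calls in bone, so promoter class and role overlap. These counts are a description, and the difference between the classes was not tested.

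Other genes of the same pathways were counted from lists of 46 further ER folding genes and 39 further ERAD genes, and are read against the shares of all tested genes. In bone 13 of 43 tested folding genes were higher and 5 lower, against 19.5% and 22.1% of all genes, led by Creld1 (log2 fold change 1.90), the selenoprotein gene Selm (1.41) and the ER peroxidase Gpx8 (1.02) among rises, and by the thioredoxin-like Tmx4 (-1.32), the sulfhydryl oxidase Qsox2 (-1.08) and the prolyl isomerase Ppib (-0.73) among falls. In bone chips 17 of 44 were higher and 4 lower, against 20.4% and 23.1%, with the procollagen isomerase Fkbp10 (1.30), Erp29 (1.10) and the collagen chaperone Serpinh1 (0.95) the largest rises and Qsox1 (-0.83), Dnajc18 (-0.52) and Cnpy4 (-0.50) the largest falls. In ESC-derived GFP+ osteoblasts 27 of 44 were higher and 6 lower, against 43% and 34.7%, with Fkbp10 (7.03), Gpx8 (4.86) and Selm (4.38) at the top and Clgn, a testis-enriched calnexin relative (-4.13), Vkorc1l1 (-2.09) and Uggt2 (-0.96) at the bottom. The median log2 fold changes of the folding list were 0.08 for bone, 0.12 for bone chips and 0.73 for ESC-derived GFP+ osteoblasts, against -0.00, -0.04 and 0.22 over all tested genes.

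Among the further ERAD genes, 8 of 37 tested were higher and 3 lower in bone, 13 were higher and 4 lower in bone chips, and 21 were higher and 9 lower in ESC-derived GFP+ osteoblasts. The same shares of all genes apply, and the 8 rises in bone are near the 19.5% of all genes. They numbered 2 to 8 on leaving out a library (2 without GFP+ (hi) replicate 1), 4 with upper-quartile factors and 14 in the joint fit. The 13 rises in bone chips numbered 8 without GFP+ (hi) replicate 1. The medians were 0.17, 0.19 and 0.52 on the log2 scale. Rises included Ubxn8 (0.97), Herpud2 (0.82) and Ngly1, which removes glycans from retrotranslocated proteins (0.67), in bone, Ubl4 (1.34), the lectin Erlec1 (0.78) and the ubiquitin ligase Rnf185 (0.66) in bone chips, and Selk (3.22) and Tmem129 (2.45) in ESC-derived GFP+ osteoblasts. Erlin1 fell in both bone (-1.69) and bone chips (-1.20), and the other falls named by size were Erlin2 (-0.58) and Selk (-0.56) in bone, Yod1 (-0.91) and Atxn3 (-0.48) in bone chips, and Rad23b (-3.17), Atxn3 (-2.43) and Bag6 (-1.50) in ESC-derived GFP+ osteoblasts. In the comparison of bone with bone chips 6 of 44 folding genes had a higher GFP effect in bone and 11 a lower one, and 0 and 4 of 37 ERAD genes had, against 14.7% and 15.6% of all genes (edgeR). Of the ERAD genes 2 were higher and 7 lower at an unadjusted p under 0.05, and DESeq2 called 0 higher and 5 lower of 38.

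Counts can be shared between genes whose exons overlap when the strand is not used, and the counting tool and its strand setting are not given in the sources used here. In the NCBIM37 annotation 15.7% of the exon bases of Hsp90b1 overlap other annotated genes, 5.25% of Txndc5 (Bmp6), 4.97% of Fkbp14 (Plekha8), 4.14% of Manf (Vprbp) and 2.87% of Derl2 (Mis12), so that the values of these genes are less certain.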

How the data were processed

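RNA sequencing counts of 18 libraries, 3 for each of 6 populations, were analysed. The authors enriched poly-A RNA, used STAR 2.4.2a with the mm9 genome and ran DESeq2 in R 3.2.2 for their own tests, per the study's methods and the submitters' processing notes. The values are whole-number counts per gene as the authors deposited them, not normalized, in 1 table for each source. The counting tool and strand setting are not given in the sources used here.

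The 3 tables were fitted separately in edgeR 4.0.16, run in R 4.3.3 (filterByExpr with a minimum count of 10, TMM factors, glmQLFit and glmQLFTest, no covariates), and p-values were adjusted over all tested genes by Benjamini-Hochberg. A gene was called at an adjusted p under 0.05. Errors beside log2 fold changes are standard errors. The GFP effects of bone and bone chips were compared by a contrast in 1 fit of 12 libraries. The main edgeR fits, of each source and of the difference between bone and bone chips, were tested on simulated data. The other settings and descriptions were not. Levels per kilobase used TMM factors over all 18 libraries and exon lengths of the NCBIM37 annotation. Figures used matplotlib 3.10.9 and pandas 2.3.3 in Python 3.11.15.

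The 38 genes and all lists were chosen with earlier results of these data known. Values in every library are given for genes called in 1 direction in all 3 sources, the 3 largest called changes in each source and direction, the 4 largest differences each way between bone and bone chips, genes called in opposite directions, and Hspa5, Hsp90b1, Calr and Syvn1. A few further members have library values beside their group's account and were chosen after their values were seen. From the pathway lists up to 3 called genes in each source and direction are named, except for 1 that is not reported here.

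Same-numbered libraries deviated together in bone chips (correlations of 0.158, 0.329 and 0.396 across genes) but not in bone (-0.0125, -0.0217 and 0.0305) or the ESC table (-0.0129, -0.0007 and -0.0150), so the numbers were taken to pair the bone chip libraries, from the data alone. Alternatives were DESeq2 1.42.0, other scaling factors and filters, a threshold of 1 on the log2 scale, a joint fit, a replicate block, and leaving out each library or Col1a1, Col1a2 and Rn45s. Bone GFP+ (hi) replicate 2 alone and the summed ESC replicates 2 and 3 were added after the data were seen. ESC replicates 2 and 3 had a chi-square of 1.68 per gene, against 6.76 to 125 in other replicate pairs. Date-like symbols (27 in the ESC table, 0.1837% of its counts) were kept in the totals.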

Additional observations from a re-analysis of the deposited data

Results flagged for a closer look

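The GFP effect of 14 of the 38 genes differed between fresh bone and bone chips by the interaction test of edgeR, in 12 libraries. As the log2 effect in bone minus that in bone chips, the difference was -1.90 for Ero1l, -1.85 for Herpud1, -1.26 for Sil1, -1.21 for Pdia6, -0.99 for Creld2, -0.91 for Hsp90b1, -0.84 for Uggt1, -0.80 for Fkbp9, -0.76 for Vimp, -0.72 for Canx and -0.46 for Ube2j1. It was 0.82 for Wfs1, 1.57 for Fkbp7 and 3.07 for Hyou1. Fresh bone and bone chip culture differ in the cells sorted, in the culture, in the make-up of the GFP- population and in sex-linked transcripts. These cannot be told apart here. In bone chip libraries Xist had 202 to 685 CPM and Ddx3y, the Y-linked gene listed there, 0 to 0.0708 CPM, without TMM factors. The groups of 3 libraries were too small to look for outlying libraries by Dixon's test.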

How the results depend on the processing

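No called gene among the 38 changed sign under any alternative, and all 70 changes of sign were in 26 results of genes that did not pass the test. Of the calls, 12 of 19 in bone, 8 of 14 in bone chips, 29 of 31 in ESC-derived GFP+ osteoblasts and 7 of 14 of the differences between bone and bone chips were never lost on leaving out a library. A threshold of 1 on the log2 scale left 839 higher and 1467 lower of all genes in bone, 679 and 916 in bone chips, and 3405 lower in the ESC table. Of the 38 it left 2 higher and 1 lower in bone, 0 and 0 in bone chips, and 16 and 2 in the ESC table. Of other folding genes it left 2 and 0, 1 and 0, and 16 and 2, and of other ERAD genes 0 and 1, 0 and 0, and 11 and 3, in the same order of sources. This setting asks for larger changes by construction. A joint fit of 18 libraries called 4047 genes and 14 other ERAD genes higher in bone, and 2 other folding and 2 other ERAD genes lower in bone chips. Upper-quartile factors gave 4 other ERAD genes higher in bone, and relative log expression (RLE) factors gave 1 of the 38 lower in bone chips. Bone GFP+ (hi) replicate 2 alone gave 1495 genes higher and 1793 lower in bone, with 3 and 6 of the 38, 8 and 1 other folding genes and 2 and 1 other ERAD genes, and 5 of the 38 lower in bone than in bone chips. Without Col1a1, Col1a2 and Rn45s the mean summed share of the 38 was 0.914% in bone GFP+ (hi), 1.02% in bone chip GFP+ (hi), 1.17% in bone chip GFP- and 0.717% in ESC libraries. Except where a construction is given, the cause was not tested.

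With the replicate number as a block, bone had 3 other folding genes lower and 5 other ERAD genes higher with 1 lower, and the bone calls of Pdia5 and Fkbp9 were lost (edgeR adjusted p = 0.0522 and 0.0553). Derl3 in bone had a log2 fold change of -0.10 in that fit. In the ESC table the block changed no call of the 38.

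Other calls that turned on a setting had small changes. In bone Fkbp9 and Edem2 lost theirs with no filter (edgeR adjusted p = 0.0645 and 0.0536) and in the joint fit (0.0594 and 0.0677), while Dnajb9 gained one in the joint fit (0.00932). In bone chips Fkbp14 lost its call in the joint fit (0.0548) and Dnajc10 with RLE factors (0.0633), and with DESeq2 Hyou1 and Pdia6 were lower (0.0429 and 0.044). In the ESC table Ero1l lost its call in the joint fit (0.0592), and Manf was lower with DESeq2 (0.0347). The difference of Ube2j1 was lost with no filter (0.0621), and Sel1l had one with DESeq2 (0.035). The median of all genes in bone was -0.11 with DESeq2, over 17173 genes.

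Leaving out each library gave 1932 to 2408 genes higher and 2186 to 2814 lower in bone, with 5 to 6 and 9 to 11 of the 38, 10 to 13 and 3 to 6 other folding genes, and 2 to 8 and 1 to 2 other ERAD genes. In bone chips it gave 2006 to 2848 and 2198 to 3084 genes, 8 to 12 and 0 to 5 of the 38, 16 to 18 and 2 to 5 other folding genes and 8 to 13 and 2 to 4 other ERAD genes. In the ESC table it gave 6331 to 6976 and 4666 to 5412 genes, 25 to 28 and 4 to 6 of the 38, 22 to 29 and 4 to 6 other folding genes and 18 to 24 and 6 to 9 other ERAD genes. For the differences between bone and bone chips it gave 1552 to 2275 and 1639 to 2270 genes, and 2 to 4 and 6 to 12 of the 38.

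On leaving out each library, the log2 fold change in bone ran over 0 for Dnajb11 (-0.19 to 0.08), Pdia4 (-0.12 to 0.22), Txndc5 (-0.07 to 0.04), Dnajc10 (-0.20 to 0.01), Os9 (-0.13 to 0.03), Derl1 (-0.15 to 0.09), Derl2 (-0.25 to 0.12), Derl3 (-0.10 to 0.88) and Vimp (-0.11 to 0.12). In bone chips it did so for Hspa5 (-0.36 to 0.16), Hsp90b1 (-0.23 to 0.14), Dnajc3 (-0.04 to 0.18), Manf (-0.07 to 0.26), Creld2 (-0.23 to 0.15), Canx (-0.11 to 0.09), Ero1lb (-0.54 to 0.01), Edem2 (-0.12 to 0.04), Os9 (-0.04 to 0.07) and Derl3 (-0.45 to 1.14), and in the ESC table for Calr (-0.00 to 0.15). The difference between bone and bone chips did so for Pdia3 (-0.26 to 0.05), Fkbp2 (-0.21 to 0.08), Edem1 (-0.03 to 0.48), Os9 (-0.13 to 0.09), Derl2 (-0.32 to 0.06) and Derl3 (-1.67 to 0.88). Other settings turned the sign of small values. The joint fit gave 0.04 for Dnajb11, 0.1 for Txndc5, 0.07 for Os9, 0.07 for Derl1, 0.01 for Derl2 and 0.08 for Vimp in bone, and bone GFP+ (hi) replicate 2 alone gave 0.05 for Txndc5, 0.09 for Os9, 0.08 for Derl1 and 0.02 for Derl2 in bone and 0.09 for the Os9 difference. Pdia4 in bone was -0.01 with upper-quartile factors and Txndc5 0.00 with no filter. Os9 in bone chips was 0.01 with DESeq2 and 0.02 with RLE factors, and Calr was -0.02 with ESC replicates 2 and 3 summed. Without Col1a1, Col1a2 and Rn45s the differences were 0.00 for Fkbp2 and 0.03 for Derl3, and with DESeq2 that of Derl3 was 0.01. The smallest bone GFP- library had 5482065 counts, which limits the precision of scarce genes such as Derl3, Ero1lb and Wfs1 there.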
